A study of Mus musculus with 14 samples.

Results

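Biglycan (Bgn), decorin (Dcn), lumican (Lum), fibronectin (Fn1), osteonectin (Sparc), periostin (Postn), thrombospondin 4 (Thbs4), the secreted frizzled-related protein Sfrp2, the insulin-like growth factor binding protein Igfbp7 and smooth muscle actin (Acta2) are products that fibroblasts and the contractile cells of vessel walls are known to make. These 10 genes were chosen by their symbols, with earlier results of these data known. They come from a table of 46959 mouse gene entries, of which 17450, all 10 among them, had enough counts to be tested. They were followed in 14 RNA libraries. Of these, 12 were cultured E-mu-Myc lines of malignant B cells, each from a different E-mu-MycTg/+ mouse (115, 136, 309, 504, 505, 506, 517, 524, 549, 649, 688 and 801), kept in culture for 24 h with no treatment, in medium containing 0.37 mM of added L-asparagine. The other 2 were B-cell lymphomas in the lymph node of wild-type C57BL/6 mice that had been given cells of line 506. From day 7 after injection until the disease endpoint, the first mouse was treated with vehicle (NaCl 0.9%) and the second with L-asparaginase (ASNase), which hydrolyses asparagine. The labels give the genotype WT for all samples, while the lines carry the Myc transgene, which is driven by the immunoglobulin heavy chain enhancer and is thereby active in B-lineage cells. Each line and each treatment had 1 library. A lymphoma library holds RNA of the grafted cells and of the cells of the host's lymph node, which the wild-type host retains.

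The extracellular matrix is the meshwork of collagens, glycoproteins and proteoglycans between cells. Fibronectin is laid down early and is bound by integrins, small leucine-rich proteoglycans coat collagen fibrils and set their thickness and spacing, and matricellular proteins such as Sparc, periostin and the thrombospondins bind both matrix and cell receptors and are made in larger amounts in wounds and tumours. In a lymph node the matrix is known to come mainly from fibroblastic reticular cells, capsule fibroblasts and the smooth muscle and pericytes of vessels, whereas B cells in culture are not known for making it.

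Promoter sequences are shown for the members with the highest (Sfrp2), a high (Postn) and the lowest (Igfbp7, Acta2) ratios between the lymphomas given below. RefSeq promoters on GRCm38.p6, which run from 250 bases before the annotated start to 50 bases after it, were matched by symbol for 7 of the 10 members, with 8 promoters in all since Postn has 2. Dcn, Lum and Fn1 have no entry. The promoters, written 5′ to 3′ with motif matches in capitals, are those at chr3:83766071-83766370 (Sfrp2, plus strand), chr3:54360857-54361156 (Postn, plus strand), chr5:77407996-77408295 (Igfbp7, minus strand) and chr19:34255324-34255623 (Acta2, minus strand).
Sfrp2: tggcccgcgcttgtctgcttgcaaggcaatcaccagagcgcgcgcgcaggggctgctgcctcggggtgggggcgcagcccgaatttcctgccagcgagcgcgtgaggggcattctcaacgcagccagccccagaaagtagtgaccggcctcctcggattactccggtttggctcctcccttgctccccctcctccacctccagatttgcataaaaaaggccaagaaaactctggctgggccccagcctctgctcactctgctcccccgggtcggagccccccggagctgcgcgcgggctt
Postn: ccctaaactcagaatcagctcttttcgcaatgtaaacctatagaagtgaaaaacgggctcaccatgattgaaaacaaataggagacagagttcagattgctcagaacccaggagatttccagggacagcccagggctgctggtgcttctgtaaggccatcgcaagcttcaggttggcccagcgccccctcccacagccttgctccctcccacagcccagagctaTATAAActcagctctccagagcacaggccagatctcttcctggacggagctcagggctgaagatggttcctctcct
Igfbp7: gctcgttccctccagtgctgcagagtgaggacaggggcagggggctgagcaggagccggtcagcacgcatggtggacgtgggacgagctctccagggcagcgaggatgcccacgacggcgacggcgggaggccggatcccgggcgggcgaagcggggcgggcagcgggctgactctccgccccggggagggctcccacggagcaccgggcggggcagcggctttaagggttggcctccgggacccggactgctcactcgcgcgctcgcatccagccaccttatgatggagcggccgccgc
Acta2: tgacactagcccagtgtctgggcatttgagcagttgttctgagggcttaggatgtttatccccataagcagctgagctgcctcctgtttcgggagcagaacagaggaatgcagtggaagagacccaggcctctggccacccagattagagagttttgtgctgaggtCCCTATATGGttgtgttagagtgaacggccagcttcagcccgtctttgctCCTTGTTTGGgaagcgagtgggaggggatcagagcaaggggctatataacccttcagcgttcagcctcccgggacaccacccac
The capitals mark a TATAAA box in Postn, at bases 225 to 230 counted from 1 at the 5′ end, which is 26 to 21 bases before the start. In Acta2 they mark a pair of CArG boxes, the element that serum response factor binds in smooth muscle genes, each with 1 mismatch, at bases 167 to 176 and 217 to 226. Searched on both strands were TATAAA, the AP-1 site TGANTCA, the SMAD site GTCTAGAC and the CArG box, and then the CArG box with 1 mismatch, which was added after the strict search had found none in the members. Among all 32851 promoters of that length, 13.6% held TATAAA, 7.81% the AP-1 site, 0.213% the SMAD site, 1.63% the CArG box and 9.98% a CArG box with 1 mismatch. Of the 8 member promoters, 1 held TATAAA, 1 the CArG box with 1 mismatch, and 0 any of the others. Base composition differed widely among them, from 40% G and C in the Postn promoter that is not shown to 73.3% in that of Igfbp7, around a median of 52.7% over all promoters.

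The lines had total counts of 24597230 to 32614751, the vehicle lymphoma 27715832 and the ASNase lymphoma 25690935. Levels are given in CPM, a gene's counts per 1000000 counts of the library, TMM-scaled. In any 1 library a count of 0 allows up to 3 counts, or 0.0896 to 0.124 CPM. The labelled cell type was borne out by 12 B cell markers, whose summed level was 3324 to 4646 CPM in the lines, 5268 CPM in the vehicle and 4089 CPM in the ASNase lymphoma. No pair of libraries held identical values. Over the lines, p-values measure only the spread between lines, and the fit assumes that each lymphoma varies as a line does. Because the tumours were sequenced as bulk tissue, more cells of a type and more RNA per cell cannot be told apart, nor can RNA of host cells and of grafted cells.

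The first comparison asked how much of each matrix transcript was in the lymphomas and how much in the cultured lymphoma cells. All 10 genes were detected in both lymphomas, and 9 of them, all but Sfrp2, were higher there than in every line and passed the test. Summed over the 10 genes, the level was 517 CPM in the vehicle and 835 CPM in the ASNase lymphoma, against 0.0327 to 7.10 CPM in the lines. Of all 17450 genes tested, edgeR's quasi-likelihood test with Benjamini-Hochberg adjustment called 13.4% higher and 11.1% lower in the lymphomas at an adjusted p under 0.05, and 19.0% of genes stood above every line in both lymphomas. The median log2 difference was 8.67 over the 10 genes, also with Dcn and Postn, which had no count in any line, set at their lower bound, and -0.0075 over all genes tested. Both lymphomas derive from line 506 and are therefore not independent of each other or of that line. Bgn, Dcn, Lum and Postn had 0 or 1 count over the lines, Thbs4 had 10 and Igfbp7 had 11. All of these entered the test only through the lymphomas and could not be called lower. The members were chosen with earlier results of these data known, so their contrast with all genes is descriptive.

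**Figure D1:**
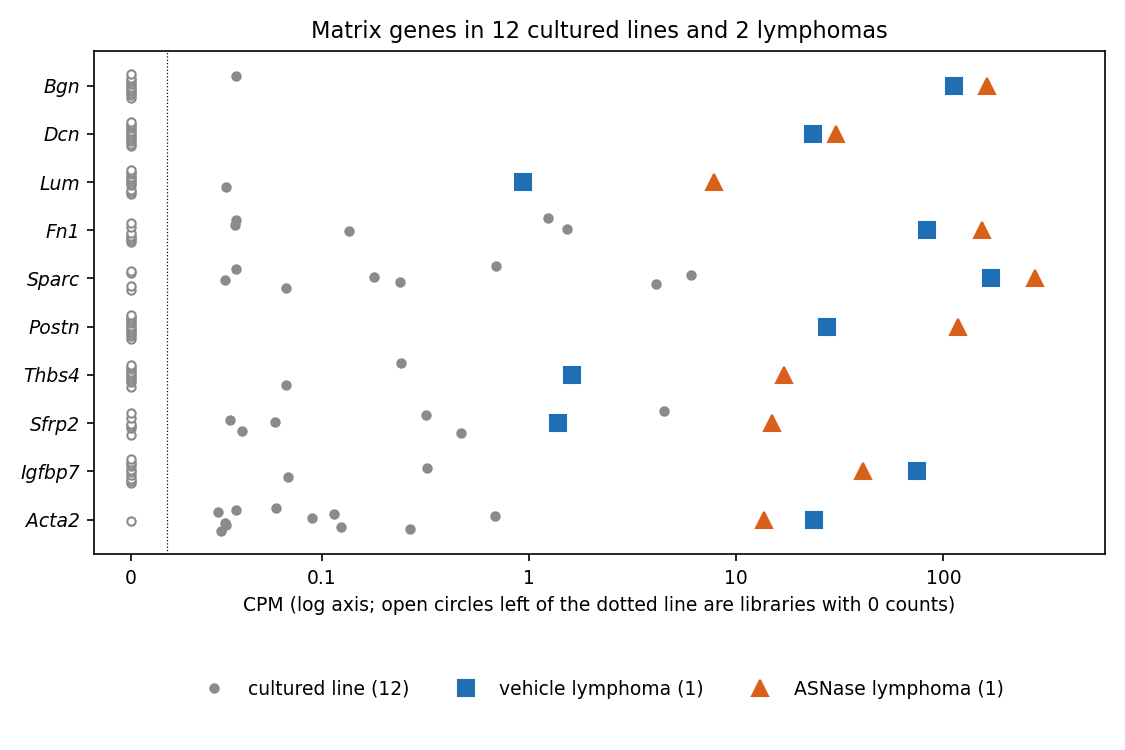
Level of each of the 10 matrix genes in CPM (log axis) in the 12 cultured lines (grey circles, open circles at the left for 0 counts), the vehicle lymphoma (blue square) and the ASNase lymphoma (orange triangle), each symbol 1 library. Both lymphomas lie to the right of every line for all genes but Sfrp2, where line 801 at 4.47 CPM lies to the right of the vehicle lymphoma at 1.38 CPM.

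The small leucine-rich proteoglycans were nearly silent in culture. Biglycan, which carries glycosaminoglycan chains, binds collagen and can engage Toll-like receptors when it is released, is encoded by Bgn at chrX:73483602-73495933. It had 1 count in line 688 and 0 in the other 11 lines, with 3473 counts (112 CPM) in the vehicle lymphoma and 4846 counts (162 CPM) in the ASNase lymphoma. The lymphomas were thus far above all lines. Over the pooled lines the vehicle lymphoma was 39195-fold higher (95% counting interval 7030 to 1548540) and the ASNase lymphoma 56734-fold higher (10178 to 2241320), and edgeR gave an adjusted p of 3.66e-09. Decorin binds collagen and holds TGF-beta in the matrix, and its gene, Dcn, lies at chr10:97479500-97518162. It had 0 counts in all 12 lines with 728 counts (23.4 CPM) in the vehicle lymphoma and 909 counts (30.4 CPM) in the ASNase lymphoma. Taking 3 counts over all lines together as the floor, the vehicle lymphoma had at least 2739-fold higher and the ASNase lymphoma at least 3547-fold higher Dcn (edgeR adjusted p = 0.0122). Lumican, a keratan sulphate proteoglycan that regulates fibril assembly, is the product of Lum at chr10:97565501-97572703. It had 29 counts (0.934 CPM) in the vehicle and 235 counts (7.85 CPM) in the ASNase lymphoma, against 1 count in line 504 and 0 in the other 11 lines. Even the vehicle lymphoma stood clear of the lines, at 327-fold the pooled level (54.3 to 13367), and the ASNase lymphoma was at 2751-fold (489 to 109124, edgeR adjusted p = 1.87e-06).

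Fibronectin and Sparc were both detected in several cultured lines. Fn1 at chr1:71585520-71653200 encodes fibronectin, the ligand of several integrins. It had 51 counts in line 517, 41 in line 801, 4 in line 506, 1 each in lines 549 and 688 and 0 in the other 7 lines, a median of 0 and a highest value of 1.52 CPM. The vehicle lymphoma had 83.3 CPM and the ASNase lymphoma 153 CPM, so that neither overlapped the lines. Fn1 rose by a log2 difference of 8.77 (SE 1.48, edgeR adjusted p = 0.00120), and the vehicle and ASNase lymphomas were 298-fold (243 to 368) and 548-fold (448 to 676) above the pooled lines. Sparc at chr11:55394500-55420080 encodes osteonectin, a calcium-binding protein that is needed for normal collagen deposition. It had 169 counts in line 524, 119 in line 504 and 23 in line 801, and 7 or fewer in the other 9 lines, with a lowest value of 0, a median of 0.0528 and a highest value of 6.06 CPM. In the vehicle lymphoma Sparc reached 169 CPM and in the ASNase lymphoma 277 CPM, both above every line. The log2 difference was 7.83 (SE 1.55, edgeR adjusted p = 0.00316), and the vehicle lymphoma was 27.9-fold above line 524, the highest line.

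Periostin and thrombospondin 4 are matricellular proteins known from bone lining, ligament, tendon and healing tissue. Postn at chr3:54361109-54391037 had 0 counts in all 12 lines, 853 counts (27.5 CPM) in the vehicle lymphoma and 3532 counts (118 CPM) in the ASNase lymphoma. By the same floor the vehicle lymphoma had at least 3209-fold higher and the ASNase lymphoma at least 13783-fold higher Postn (edgeR adjusted p = 0.00766), and neither overlapped the lines. For Postn and Dcn, which have 0 counts in all lines, the test rests on 2.05 degrees of freedom, against 13.0 for the other members. Thbs4 at chr13:92751590-92794818 encodes a pentameric protein known from tendon and muscle. It had 8 counts in line 801, 2 in line 136 and 0 in the other 10 lines, a highest value of 0.241 CPM. Thbs4 stood at 1.61 CPM (50 counts) in the vehicle and at 17.1 CPM (511 counts) in the ASNase lymphoma, both above every line. The log2 difference was 7.39 (SE 1.21, edgeR adjusted p = 0.000936), and the vehicle and ASNase lymphomas were 56.4-fold (28.3 to 125) and 598-fold (323 to 1255) above the pooled lines.

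Sfrp2 was the member that did not pass the test. Its gene at chr3:83766321-83774316 encodes a secreted protein with a frizzled-like domain that binds Wnt proteins. Line 801 had 148 counts (4.47 CPM), line 136 had 14, line 649 had 10, line 517 had 2, lines 309 and 524 had 1 each and the other 6 lines had 0. The vehicle lymphoma had 43 counts (1.38 CPM), which is above 11 lines and 0.310 times the level of line 801, and the ASNase lymphoma had 447 counts (14.9 CPM), which is above all 12. With a log2 difference of 3.32 (SE 1.84) the edgeR adjusted p was 0.214. Without line 801 the log2 difference was 5.67 and the edgeR adjusted p 0.00955, and DESeq2 on all libraries gave 5.62 and an adjusted p of 0.0196. A fit with only the vehicle lymphoma gave an edgeR adjusted p of 0.773, and one with only the ASNase lymphoma 0.133. Sfrp2 and Fn1 each overlap an exon of a gene on the opposite strand (Gm26771 and Apol7d), and these had 0 to 2 counts in the lymphomas.

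Igfbp7 and Acta2, the members most associated with vessel walls, rose from a low level in culture as well. Igfbp7 at chr5:77349240-77408041 encodes a secreted protein related to the insulin-like growth factor binding proteins that is abundant in blood vessels. It had 9 counts in line 524, 2 in line 504 and 0 in the other 10 lines, 2311 counts (74.4 CPM) in the vehicle lymphoma and 1229 counts (41.0 CPM) in the ASNase lymphoma. The groups did not overlap, and the log2 difference was 10.57 (SE 1.21, edgeR adjusted p = 5.86e-05). Igfbp7 shares 85 exon bases with Polr2b on the opposite strand, a gene with 101499 counts over the lines, and reads of that stretch cannot be told apart if strand was not used in counting, yet Igfbp7 had 0 counts in 10 lines. Acta2 at chr19:34241090-34255336 encodes the actin of smooth muscle, pericytes and activated fibroblasts, an intracellular protein and not a matrix component. It was the member found in the most lines, with 19 counts in line 524, 8 in line 136, 1 to 3 in 9 lines and 0 in line 506, a median of 0.0495 CPM and a highest value of 0.682 CPM. The vehicle lymphoma had 23.6 CPM and the ASNase lymphoma 13.6 CPM, both above all lines, and the log2 difference was 7.11 (SE 0.92, edgeR adjusted p = 0.000162).

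Among the cultured lines, the few counts were spread unevenly and not by the same lines for every gene. Line 801 had 84.1% of the line counts of Sfrp2 and 80% of those of Thbs4, line 517 had 52.0% of those of Fn1, and line 524 had 51.5% of those of Sparc, 81.8% of those of Igfbp7 and 44.2% of those of Acta2. Summed over the 10 genes, lines 524, 801 and 504 stood highest, with 198, 222 and 123 counts, and line 115 lowest, with 1 count. Line 517 had 62 counts, line 136 had 26, line 649 had 11 and the other 5 lines had 8 or fewer. The 16 genes of a fibroblast marker list were also at or near 0 in the lines, at 0 to 3.34 CPM in sum. They had 93 counts in line 524, of which 78 were Thy1, a surface protein that fibroblasts share with T cells, and 64 counts in line 504, of which 46 were the growth factor receptor Pdgfrb. In line 801 they had 7 counts and in line 517, 5 counts, beside 222 and 62 counts of the members. Some other genes known from vessels were high in line 504 (Egfl7, 8977 counts, and Emcn, 373 counts) and line 524 (Vwf, 115 counts). Most were not, since Kdr, Tek, Tie1 and Cldn5 had 0 counts in both lines, Vwf 0 in line 504 and Emcn 0 in line 524. Pecam1, which had counts in every line, was highest in line 504 (154 CPM) and lowest in line 524 (26.4 CPM). The endothelial marker list summed to 477 CPM in line 504 and 36.1 CPM in line 524, beside 397 CPM in the vehicle lymphoma. The relation of these genes to the Sparc counts was not tested.

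**Figure D2:**
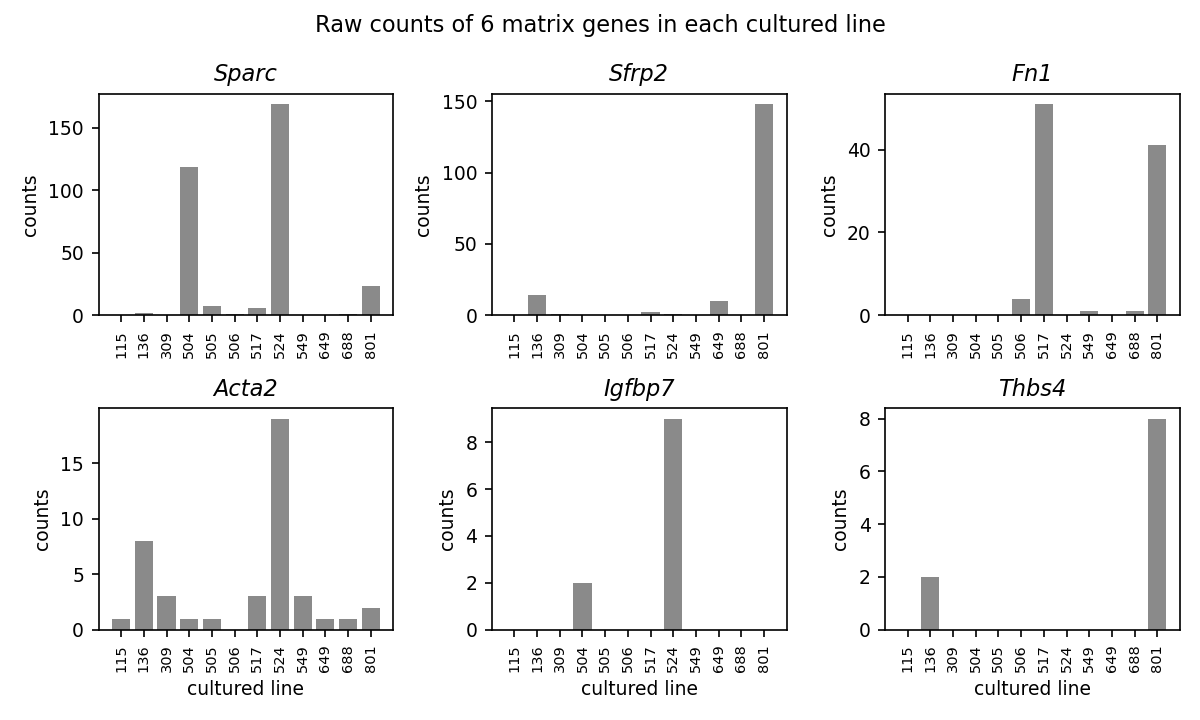
Raw counts of 6 of the genes (one panel each, counts on the vertical axis from 0) in each of the 12 cultured lines, 1 library a line. The bars of Sparc stand out in lines 504 and 524 (119 and 169 counts), those of Fn1 in lines 517 and 801 (51 and 41 counts), and that of Sfrp2 in line 801 (148 counts).

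Line 506 in culture, the source of the grafted cells, had 4 counts of Fn1, 1 count of Sparc and 0 of the other 8 genes. Fn1 was 614-fold higher in the vehicle lymphoma than in that library (239 to 2254) and 1128-fold higher in the ASNase lymphoma (440 to 4142). Against 3 counts in that library, the vehicle and ASNase lymphomas were at least 1098-fold and 1590-fold higher for Bgn, at least 730.8-fold and 403-fold higher for Igfbp7, at least 270-fold and 1159-fold higher for Postn, and at least 9.17-fold and 77.1-fold higher for Lum. Each of these compares single libraries and has no replicate check. None of the genes that line 506 lacked in culture was missing from either of its tumours.

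The second comparison set the lymphoma of the ASNase-treated mouse beside that of the vehicle-treated mouse. With 1 library each there is no test, and intervals cover counting error only. Transcripts of 8 of the 10 genes were higher in the ASNase lymphoma, and those of Igfbp7 and Acta2 were lower. Sfrp2 was 10.8-fold higher (7.88 to 15.1), from 43 to 447 counts, Thbs4 10.6-fold (7.92 to 14.5), from 50 to 511 counts, and Lum 8.41-fold (5.70 to 12.8), from 29 to 235 counts. Postn, with far more counts behind it, was 4.30-fold higher (3.98 to 4.63). The other 4 higher genes differed less, with 1.84-fold for Fn1 (1.75 to 1.93), 1.64-fold for Sparc (1.58 to 1.70), 1.45-fold for Bgn (1.39 to 1.51) and 1.30-fold for Dcn (1.17 to 1.43). Acta2 was at 0.574 times the vehicle level (0.507 to 0.649) and Igfbp7 at 0.552 times (0.514 to 0.591). The 3 genes with the highest ratios were those with the fewest counts in the vehicle lymphoma, and their intervals overlap one another but not that of Postn.

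**Figure D3:**
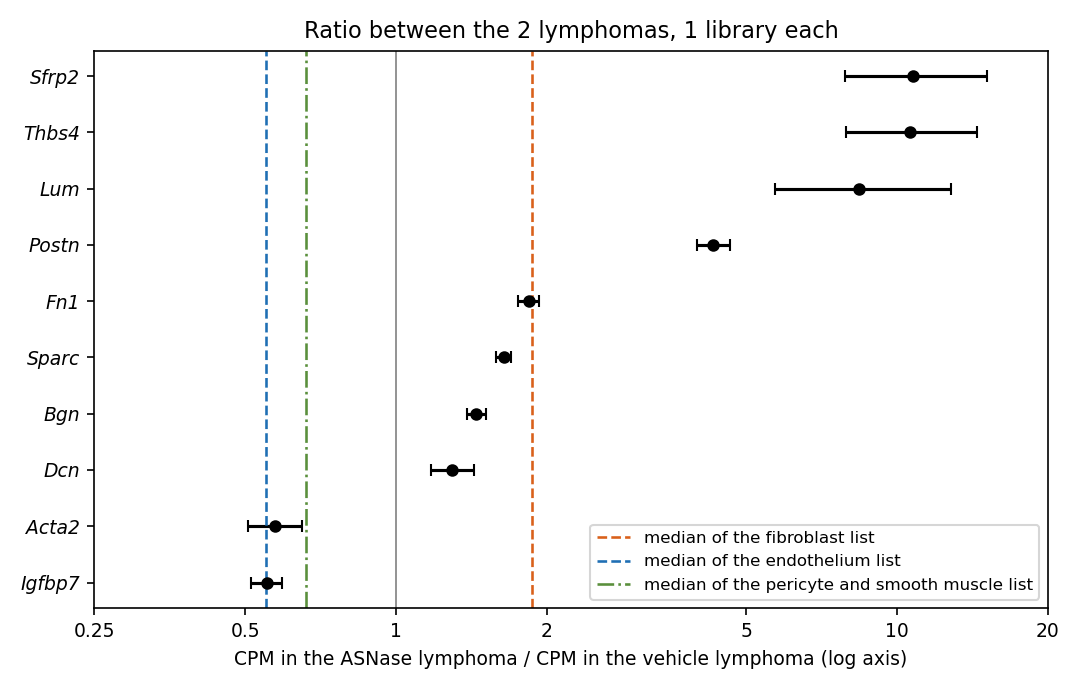
Ratio of the level in the ASNase lymphoma to that in the vehicle lymphoma (log axis) for each gene, with 95% counting intervals, 1 library each; vertical lines mark equal levels and the median ratios of 3 marker lists. Sfrp2, Thbs4, Lum and Postn lie to the right of the fibroblast median at 1.87, Bgn, Dcn and Sparc lie between equality and that median, and Igfbp7 and Acta2 lie near the endothelium median at 0.549.

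Read against all genes, 4 of the 10 members were at least 2-fold higher with 5 CPM or more in either lymphoma, against 2.70% of the 10561 genes at that level, and 0 were at least 2-fold lower, against 1.99%. Sfrp2, Thbs4 and Lum, at 1.38, 1.61 and 0.934 CPM in the vehicle lymphoma, reached 5 CPM only in the ASNase lymphoma, where they were high. Their part in this count and their ranks are therefore descriptive only. The median log2 ratio was 0.80 over the members and -0.05 over those genes, of which 44.7% had a ratio above 1. Sfrp2, Thbs4, Lum and Postn ranked 7, 8, 12 and 33 from the highest ratio among the 10561 genes, and Igfbp7 and Acta2 ranked 10223 and 10159. With a minimum of 20 CPM in either lymphoma in place of 5, Postn alone of the members was past the 2-fold size, since Sfrp2, Thbs4 and Lum stayed below 20 CPM.

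Markers of several cell types differed between the lymphomas as well. Of 16 fibroblast markers, 12 had a ratio above 1, and their summed level was 1045 CPM in the vehicle and 2430 CPM in the ASNase lymphoma, with none at 0. Most of both sums came from the fibrillar collagen chains Col1a1 (273 and 602 CPM), Col1a2 (218 and 579 CPM) and Col3a1 (265 and 844 CPM), themselves matrix genes. Ratios below 1 were those of Thy1 (0.510), Ly6c1 (0.732), Pdgfrb (0.856) and Col6a3 (0.942). Higher in the ASNase lymphoma were also 15 of 19 macrophage and monocyte markers, at 607 and 1195 CPM in sum. Lower in the ASNase lymphoma were 14 of 15 endothelial markers (397 and 248 CPM in sum), 10 of the 11 pericyte and smooth muscle markers with 1 CPM or more (191 and 121 CPM) and the lymph node reticular stroma markers (211 and 136 CPM, with 1 of 10 above a ratio of 1). These lists were not silent in the grafted cells, since line 506 in culture had 91.2 CPM of the endothelial, 64.3 CPM of the pericyte and smooth muscle (63.8 CPM of it Rgs5) and 132 CPM of the reticular stroma markers (131 CPM of it Il6st). T cell markers were lower for 10 of 10 genes, each at least 2-fold, at 71.3 and 16.6 CPM in sum. The 12 B cell markers summed to 5268 and 4089 CPM, with 2 above a ratio of 1, and the erythroid markers to 223 and 163 CPM, with 0 of 6 above it. Tendon and cartilage markers, a list of 10 with Mkx and Acan at 0, summed to 16.9 and 42.3 CPM. Skeletal muscle markers summed to 14.2 and 7.55 CPM, with Myh1, Myh4, Mb and Myod1 at 0, and mesothelial and epithelial markers to 1.06 and 1.07 CPM, with Krt5 and Krt14 at 0. The part of these differences in those of the matrix genes was not tested.

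The ratios were also set beside the median ratio of 3 marker lists, which divides every gene by the same constant and so adds nothing on how the genes differ from one another. The fibroblast median was 1.87. The counting intervals of Sfrp2, Thbs4, Lum and Postn lay above it, those of Sparc, Bgn and Dcn between equality and this median, and that of Fn1 (1.75 to 1.93) held it. Divided by it, Sfrp2 stood at 5.76, Thbs4 at 5.67, Lum at 4.49 and Postn at 2.30, and Fn1 at 0.982, Sparc at 0.877, Bgn at 0.773 and Dcn at 0.692. The endothelial median of 0.549 was inside the intervals of both Igfbp7 and Acta2, and the intervals of the other 8 genes lay above it. Against the pericyte and smooth muscle median of 0.661, the intervals of Igfbp7 and Acta2 lay below and those of the other 8 above. The lymph node reticular stroma list, with a median ratio of 0.613, was not used in this way.

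Levels of different genes were compared per length, as RPKM, the CPM over each kilobase of exon. In the vehicle lymphoma the order from the highest was Igfbp7 (61.5), Sparc (50.2), Bgn (18.3), Acta2 (13.3), Dcn (11.2), Fn1 (7.13), Postn (3.16), Sfrp2 (0.643), Thbs4 (0.489) and Lum (0.450 RPKM). The last 3 were not separable by their counting intervals, while the upper 7 were. In the ASNase lymphoma the order was Sparc (82.4), Igfbp7 (34.0), Bgn (26.5), Dcn (14.6), Postn (13.6), Fn1 (13.1), Acta2 (7.61), Sfrp2 (6.93), Thbs4 (5.19) and Lum (3.78 RPKM). Here the intervals overlapped between Dcn and Postn, between Postn and Fn1, and between Acta2 and Sfrp2. Of the summed RPKM of the 10 genes, Igfbp7 made up 37.0% in the vehicle and 16.4% in the ASNase lymphoma, Sparc 30.2% and 39.7%, and Postn 1.90% and 6.53%.

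**Figure D4:**
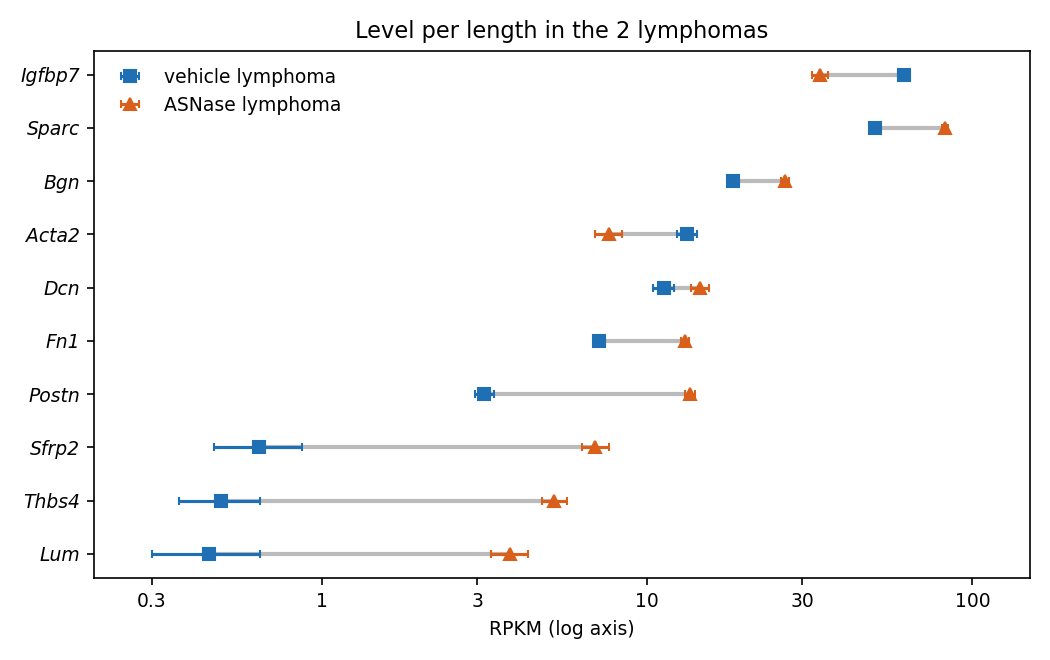
Level per length in RPKM (log axis) of each gene in the vehicle lymphoma (blue squares) and the ASNase lymphoma (orange triangles), 1 library each, with 95% counting intervals and a grey line joining both values of a gene. Igfbp7 and Acta2 are lower in the ASNase lymphoma, and the 3 lowest genes, Sfrp2, Thbs4 and Lum, have the longest lines.

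Other genes of the same families were called higher in the lymphomas too, beside 13.4% higher and 11.1% lower of all genes tested. A gene at 0 in the lines entered the test only through the lymphomas, and so could not be called lower. Genes near 0 in all libraries were not tested, which left 12 of 17 listed small leucine-rich proteoglycans, members included. The counts of calls are thus partly set by that filter and lend no support of their own. Of the 9 further small leucine-rich proteoglycans tested, 7 were called higher and 0 lower, among them Podn (8.27 CPM in the vehicle lymphoma and 10.0 CPM in the ASNase lymphoma, edgeR adjusted p = 5.15e-07, with values in that order from here on), Fmod, the fibril-binding fibromodulin (7.44 and 12.5 CPM), and Aspn, or asporin (1.80 and 6.11 CPM). Matricellular genes counted 12 higher and 0 lower of 19, among them Cyr61, an integrin ligand (32.5 and 11.7 CPM, edgeR adjusted p = 2.62e-07), Thbs1 (47.8 and 48.8 CPM) and Tnxb, or tenascin X (12.4 and 13.9 CPM). Among genes of fibronectin-associated, elastic fibre and large proteoglycan matrix, 25 of 29 were called higher and 0 lower. They included Lox, the enzyme that cross-links collagen and elastin (13.9 and 35.9 CPM, edgeR adjusted p = 2.62e-07), and the fibulins Fbln2 (30.2 and 56.8 CPM) and Fbln5 (5.44 and 4.64 CPM). Contractile genes counted 9 higher and 0 lower of 14, among them Tagln, or transgelin (21.3 and 12.1 CPM, edgeR adjusted p = 7.75e-05), and Myh11, the smooth muscle myosin heavy chain (4.70 and 3.14 CPM).

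Smaller shares were called in the remaining lists. Of 3 further frizzled-related genes, Sfrp1 was called higher (0 counts in all lines, 42 and 285 counts in the lymphomas, edgeR adjusted p = 0.0227). That call was lost without the ASNase lymphoma, when 0 genes of the family were called, and 2 were called without line 504, without line 524, without line 801 or with no filter on low counts. Of 5 further insulin-like growth factor binding proteins, Igfbp3 (45.7 and 51.3 CPM, edgeR adjusted p = 4.46e-08) and Igfbp6 (0.708 and 2.00 CPM) were called higher, and without line 504 the family had 5 calls in place of 3, Igfbp7 included. Among 25 receptors and partners of these proteins 6 were called higher and 0 lower, with a median log2 difference of 0.33. The called ones included the collagen receptor Ddr2 (9.27 and 8.48 CPM), the Sparc receptor Stab1 (36.4 and 74.6 CPM) and the syndecan Sdc3 (40.5 and 55.6 CPM). Of 20 genes of TGF-beta signalling, a pathway known to induce matrix genes, 3 were called higher and 0 lower, a share near the 13.4% of all genes tested, with a median log2 difference of -0.0046. The called ones included Acvrl1, a receptor of the family (10.6 and 7.11 CPM), and Pmepa1 (2.80 and 4.04 CPM), while DESeq2 called 3 genes of this list lower and edgeR 1 without line 504 or line 524.

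Between the lymphomas, the families differed in direction, by counts and medians that are descriptive only. A gene was counted if 1 of the lymphomas held it at that level or above. Ogn, Tnn, Smoc2 and Efemp1, among others, were counted only through the ASNase lymphoma, where they were high. The share of all genes with a ratio above 1 was 44.7% at 5 CPM, and is not given at 1 CPM. Over further genes that reached 1 CPM in either lymphoma, the ASNase lymphoma was higher for 6 of 7 small leucine-rich proteoglycans (median log2 ratio 0.53), 15 of 19 matricellular genes (0.58), 18 of 28 genes of fibronectin-associated and elastic fibre matrix (0.33) and 4 of 5 insulin-like growth factor binding proteins (0.42), and for 1 of 11 contractile genes (-0.58). Acta2 at 0.574 thus lay with its contractile list, where Tagln stood at 0.566 (0.497 to 0.645) and Des, the intermediate filament desmin, at 0.306 (0.231 to 0.400), with Cald1 at 1.36 as the exception. Igfbp7 and Igfbp2 were the genes of their family with a ratio below 1, whereas Igfbp4 stood at 1.49 (1.37 to 1.62). The matricellular list reached from 0.361 for Cyr61 (0.319 to 0.408) to 15.6 for Nov (10.8 to 23.2), which had 31 and 465 counts. Sfrp1 stood at 7.04 (5.08 to 9.98) beside Sfrp2 at 10.8, and Mfap4, a microfibril protein, at 4.96 (3.47 to 7.28).

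**Figure D5:**
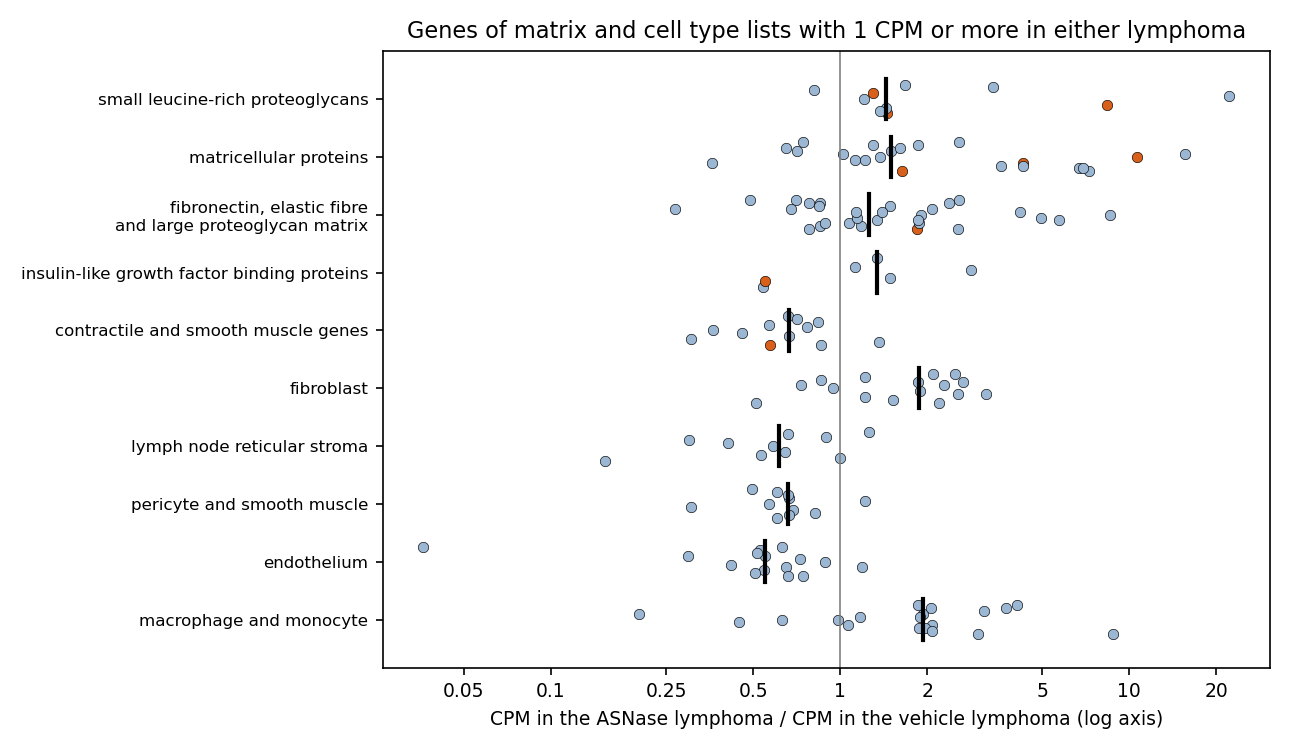
Ratio of the level in the ASNase lymphoma to that in the vehicle lymphoma (log axis) for the genes of 5 matrix and contractile lists and 5 cell type lists with 1 CPM or more in either lymphoma; orange points are members, blue points other genes, black bars the medians without members. The fibroblast and macrophage medians lie at 1.87 and 1.94, and those of the contractile, reticular stroma, pericyte and smooth muscle, and endothelium lists lie between 0.549 and 0.668.

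The genes with the most similar profiles were found by the root mean square difference of centred log2 CPM over the 14 libraries. The search covered 9202 genes that reached 10 CPM in either lymphoma. Lum was most like Itgbl1, an integrin-related secreted protein, at a difference of 0.19, followed by Cpxm2 (0.28) and Nov (0.30). For Thbs4 the noncoding RNA Meg3 came first, at 0.58, and Nov and Itgbl1 followed at 0.60 and 0.62. Dcn was most like Sparcl1 (0.18), a relative of Sparc, then Slco2b1 (0.18) and Tnc (0.19). Postn was most like C1qb, a complement chain of macrophages (0.23), and Bgn most like Vcam1, an adhesion molecule (0.36). Igfbp7 was nearest to Col6a3 (0.44) and Acta2 to Cygb (0.51). No gene came as near to Sparc, Fn1 and Sfrp2, whose counts were concentrated in a few lines. Their nearest genes were Tgfbi (1.49), Cxcl12 (1.44) and Siglec1 (0.90). Since most of these profiles consist of lines at or near 0 and a pair of tumours, the measure mainly compares 2 libraries with the rest. Genes near each other by it can differ in direction between the lymphomas. Sparcl1 (ratio 0.710) and Tnc (0.648) were lower in the ASNase lymphoma, while Dcn (1.30) and Slco2b1 (1.45) were higher.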

How the data were processed

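RNA sequencing gave 1 table of 14 libraries, and the deposited values are raw counts per gene, whole numbers that are not normalized. Per the labels' protocols, total RNA was made into libraries with a stranded mRNA kit and sequenced as paired ends. STAR 2.4.0, featureCounts and Subread 1.5.0-p3 are named in the submitters' processing notes, together with mm10 (GRCm38). How strand and reads with several matches were handled is not given in the sources used here. All 14 columns were matched to samples by title and 0 were left over. The 100 spike-in and phage entries, which held 5 to 534 counts per library, entered neither library sizes nor tests.

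The tests used edgeR 4.0.16 (with DESeq2 1.42.0 as an alternative) under R 4.3.3. Python 3.11.15 with matplotlib 3.10.9 drew the figures. After filterByExpr on the 3 groups and TMM scaling, the quasi-likelihood test of edgeR (glmQLFit and glmQLFTest) compared the mean of both lymphomas with the lines, with 11 residual degrees of freedom from the lines, Benjamini-Hochberg adjustment over all genes tested and a threshold of 0.05. Profiles used log2 CPM with a prior count of 2. Single libraries were compared by ratios of CPM with exact 95% binomial intervals, and by a size of at least 2-fold with 5 CPM or more in either lymphoma. As the reads have no molecular identifiers, intervals and the floor of 3 counts cover counting error only. RPKM used the exon lengths of the deposited table. The scripts were tested on simulated counts.

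Named genes were the 10 members and, for each pathway list, the 3 genes with the smallest p and those with the largest and smallest ratio between the lymphomas at 5 CPM or more, besides the most abundant marker of a cell type list, markers at 0 and the 3 most similar genes of each member. Some were left out for length, and a result that needs an item withheld for evaluation is not reported here. The marker genes named in lines 504 and 524, Col1a2, the fibroblast markers with a ratio below 1, Igfbp2 and the gene families in the closing section were named after their values were seen. The members and lists were chosen with earlier results of these data known.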

Additional observations from a re-analysis of the deposited data

How the results depend on the processing

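The 9 calls of members kept their direction and their side of the threshold under all 17 alternatives (other scaling, DESeq2, no filter, each lymphoma and each line left out), with adjusted p-values up to 0.0296. For Bgn, Dcn, Lum, Postn, Thbs4 and Igfbp7, which entered the test only through the lymphomas, the kept direction lends no support of its own. Over all 589 values recomputed, 526 kept their verdict, 61 moved, 2 became significant (Sfrp2, with DESeq2 and without line 801) and 0 reversed. A ratio between the lymphomas could count as reversed only if it was at least 2-fold, so smaller ratios that crossed 1 counted as moved. In the ASNase lymphoma 8 members were higher and 2 lower. Relative to the fibroblast median these were 4 and 6, and relative to the endothelial median 10 and 0. Leaving out 1 library at a time gave 1816 to 4881 genes called in place of 4269, 1177 to 2756 in place of 2340 higher, and 639 to 2125 in place of 1929 lower; the lowest values were those without the ASNase lymphoma, and those without the vehicle lymphoma were 2012, 1237 and 775. Scaling by total counts shifted the median log2 difference by 0.22 and left 943 genes called lower. Between the lymphomas, a minimum of 1 CPM gave 1133 genes past the 2-fold size (582 higher and 551 lower), and one of 20 CPM gave 192 (120 higher and 72 lower), in place of 495 (285 and 210). Of the members, 1 was past it at 20 CPM, and at a 1.5-fold size 8 were, of which 2 were lower. By CPM without length, 9 members changed their rank in the vehicle and 7 in the ASNase lymphoma. With 1 library each, differences between the lymphomas have no replicate check, and at this depth the lines' levels under 0.124 CPM cannot be told from 0. No paired analysis was possible because each lymphoma group has 1 library.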

Other observations

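Whole families of the matricellular list spread widely between the lymphomas. Of the thrombospondins with Thbs4, Thbs1 had 47.8 CPM in the vehicle lymphoma and 48.8 CPM in the ASNase lymphoma (ratio 1.02, 95% counting interval 0.949 to 1.10), Thbs3 a ratio of 1.86 (1.40 to 2.49), Thbs2 of 3.59 (3.24 to 3.99) and Comp of 6.71 (4.55 to 10.2), against 10.6 for Thbs4. Thbs2 had 0 counts in the lines, whereas Thbs3 and Comp had 343 and 296 counts over the lines and were not called against them (edgeR adjusted p = 0.0755 and 0.144). Of the CCN proteins, secreted regulators of cell adhesion, Cyr61 had a ratio of 0.361 (0.319 to 0.408), Wisp2 of 1.30 (1.10 to 1.53), Ctgf of 2.57 (2.31 to 2.87), Wisp1 of 4.29 (3.16 to 5.92) and Nov of 15.6 (10.8 to 23.2). Wisp3 had 1 count in each lymphoma.

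Among small leucine-rich proteoglycans, Ogn, or osteoglycin, had 0 counts in the lines, 5 counts in the vehicle and 107 counts in the ASNase lymphoma, a ratio of 22.2 (9.22 to 69.8), above the 8.41 of Lum, with overlapping intervals. Podnl1 went the other way, with 24 and 3 counts, a ratio of 0.130 (0.0250 to 0.427). Epyc and Kera had 0 counts in all libraries. These values come from 1 library for each treatment and have no replicate check.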
